A study of Mus musculus with 2 samples.

Results

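Heterogeneous nuclear ribonucleoproteins (hnRNPs) are abundant RNA-binding proteins that coat newly made transcripts and steer splicing, export, translation and decay. Many hnRNP genes make several protein isoforms by alternative splicing, and several control their own level by splicing part of their RNA into forms that carry an early stop codon or keep an intron. In macrophages, hnRNPs act on inflammatory RNAs, among them mRNAs with AU-rich decay elements. The 10 genes described here are Hnrnpa1, Hnrnpa2b1, Hnrnpa3, Hnrnpc, Hnrnpd, Hnrnph1, Hnrnpk, Hnrnpl, Hnrnpm and Hnrnpu. They were chosen by gene symbol, and all 10 were found among the 55536 annotated genes in the gene tables.

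The series holds 2 ribosomal RNA-depleted total RNA-seq libraries, both of 1 group: primary bone marrow-derived macrophages of mouse strain C57BL/6J, stimulated for 25 min with 100 ng/ml lipid A, with RNA from the nucleoplasmic fraction. Lipid A is the membrane anchor of bacterial lipopolysaccharide and the ligand of TLR4. The labels also call the fraction nuclear, name the same donor for both libraries, and give an RNA input of 500 ng for replicate 1 and 1 µg for replicate 2. No untreated, cytoplasmic or other-time sample was analysed here, so the values are levels in treated cells, no comparison between conditions was possible and no test was run. The gene tables held 13506939 estimated counts in replicate 1 and 17932332 in replicate 2. The 8 macrophage markers, among them Csf1r and Lyz2, lay between 31.3 and 1708 TPM (a level scaled by transcript length and to a fixed library total). Of 12 markers of T and B cells, neutrophils, erythroid cells and fibroblasts, 1 reached 1 TPM in both libraries, and the highest value was 1.72 TPM. The nuclear RNAs Malat1 and Neat1 stood at 1821 TPM or above. Values are mean ± SD over the 2 libraries (n = 2), and since nothing names separate animals the SD measures only the spread between these libraries, which may be technical.

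All 10 genes were detected at 1 TPM or above in both libraries, against 44.5% of the 22028 protein-coding genes (at 5 TPM, all 10 against 28.6%), and all lay in the top 5.86% by mean TPM. Their median was 130.6 TPM, against 0.61 over all protein-coding genes and 13.1 over the 7859 that had 100 counts or more in each library. Together they held 0.270% of counts in replicate 1 and 0.276% in replicate 2.

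Hnrnpa2b1 encodes the A2 and B1 proteins, which bind UAG-containing RNA and sort RNAs for transport. It had 524.9 TPM in replicate 1 and 446.4 in replicate 2 (486 ± 55.5) and ranked 54 among protein-coding genes. Hnrnph1, whose protein binds runs of G, followed with 249.7 and 169.5 TPM (210 ± 56.7). These levels of Hnrnpa2b1 and Hnrnph1 overlapped neither each other nor those of any other of the 10 genes.

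A middle group of 5 genes had neighbouring ranges that overlapped. Hnrnpk, whose protein binds C-rich RNA and DNA, had 160.2 and 117.7 TPM. Hnrnpa3, an A/B-type relative of Hnrnpa1, had 149.6 and 118.4 TPM. Hnrnpl, whose protein binds CA repeats, had 163.8 and 101.7 TPM. Hnrnpu, whose large protein binds chromatin-associated RNA and is also called SAF-A, had 145.7 and 111.2 TPM. Hnrnpm, whose protein binds GU-rich RNA, had 144.6 and 100.4 TPM. The order among these 5 differed between the libraries, with Hnrnpl first of the 5 in replicate 1 and behind Hnrnpa3, Hnrnpk and Hnrnpu in replicate 2.

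The 3 lowest were Hnrnpc, Hnrnpa1 and Hnrnpd. Hnrnpc, whose protein binds U tracts and measures the length of new transcripts, had 112.7 TPM in replicate 1 and 57.8 in replicate 2 (85.2 ± 38.8), a range that overlapped that of Hnrnpm. Hnrnpa1, a splicing repressor, had 56.2 and 44.7 TPM (50.5 ± 8.10). Hnrnpd, also called AUF1, binds AU-rich elements of cytokine mRNAs and had 48.7 and 32.5 TPM (40.6 ± 11.5). The ranges of Hnrnpa1 and Hnrnpd overlapped. The lower places depend on the table: by alignment-free TPM the 3 lowest were Hnrnpa1 (13.2), Hnrnpd (18.4) and Hnrnpa3 (32.6), with Hnrnpc at 47.1, while Hnrnpa2b1 (167) and Hnrnph1 (86.0) were again the highest. These are means of libraries that lay far apart, with replicate 2 the lower in each gene. Hnrnpa2b1 had 247 and 86.2 alignment-free TPM, and Hnrnpc 76.3 and 17.9.

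These gene levels sum transcripts of several annotated types. In the annotation, protein_coding transcripts carry a full or partial reading frame; nonsense_mediated_decay transcripts have a stop codon placed so that decay is predicted; retained_intron transcripts are classed as holding intron sequence relative to other transcripts of the gene; and processed_transcript entries have no assigned reading frame. Counted over protein_coding transcripts alone, the order changed. Hnrnpa2b1 stayed first at 165 ± 11.0 TPM, with 157.1 and 172.7 in the replicates, and Hnrnpa3 moved to second place at 124 ± 23.0; in the alignment-free table it stood at 27.6 TPM, behind Hnrnpa2b1 (53.3), Hnrnpk (34.6) and Hnrnpc (33.4). Hnrnph1 fell in the order from second place to ninth at 15.1 ± 2.76 TPM, and Hnrnpa1 was last at 7.79 ± 0.396. The others lay between, at 69.2 ± 10.5 for Hnrnpk, 59.3 ± 15.9 for Hnrnpc, 53.4 ± 9.73 for Hnrnpm, 40.6 ± 20.0 for Hnrnpl, 34.3 ± 8.06 for Hnrnpu and 21.1 ± 6.43 TPM for Hnrnpd.

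**Figure D1:**
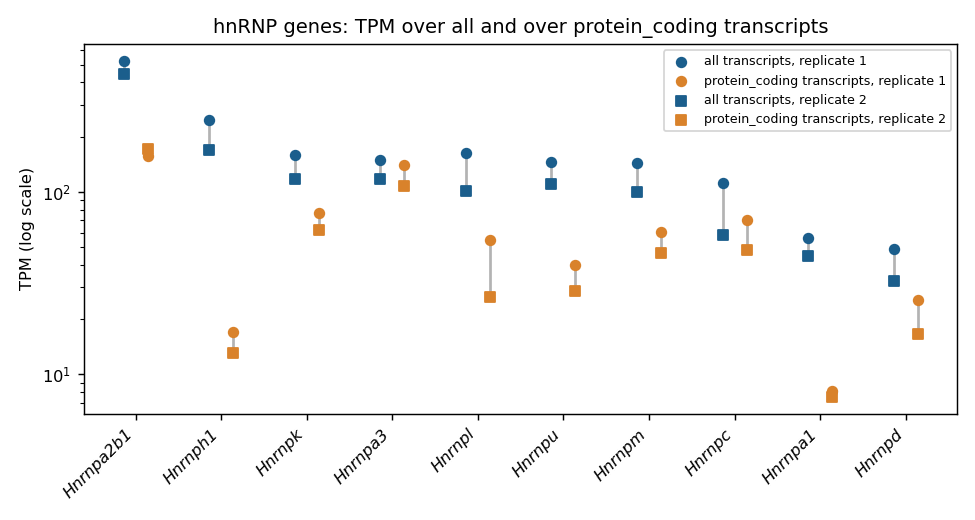
TPM (log axis) of the 10 hnRNP genes in replicate 1 (circles) and replicate 2 (squares), over all transcripts (blue) and over protein_coding transcripts (orange); lines join the 2 libraries. The gap between blue and orange is widest for Hnrnph1 (210 against 15.1 TPM) and smallest for Hnrnpa3 (134 against 124 TPM).

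The share of each gene's estimated counts in protein_coding transcripts ranged from 9.04% ± 0.218 for Hnrnph1 to 98.5% ± 0.415 for Hnrnpa3, with a median of 62.0% over the 10 genes. Over the 7859 protein-coding genes with 100 counts or more in each library the median was 86.6%. In 4 of the 10 genes the share was under 50% in both libraries, against 12.5% of those 7859 genes (14.5% of those with an annotated transcript of another type). The 4 were Hnrnph1 (9.19% and 8.89%), Hnrnpa1 (12.9% and 14.2%), Hnrnpa2b1 (33.0% and 40.04%) and Hnrnpl (36.5% and 37.1%). Lower shares than that of Hnrnph1 were found in 1.16% of the 7859 genes, and lower shares than that of Hnrnpa1 in 1.69%. The Hnrnpa1 share is uncertain, because close copies of the gene compete for its reads, as given below. Weighted by TPM, which gives short transcripts more weight, 6 of the 10 genes were under 50%, with Hnrnpm at 44.0% and Hnrnpu at 26.6% added, against 19.9% of the 7859 genes at that weighting.

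The remaining genes were above 50% in both libraries by counts. The protein_coding share was 60.8% and 58.7% for Hnrnpu, 65.7% and 63.0% for Hnrnpd, 64.3% and 71.4% for Hnrnpm, 75.6% and 76.6% for Hnrnpk, and 89.4% and 95.6% for Hnrnpc. For 3 of the 10 genes (Hnrnpa2b1, Hnrnpc and Hnrnpm) the 95% Wilson intervals of the 2 libraries did not overlap, with the higher share in replicate 2 each time. These intervals cover counting error only, not the error of assigning reads to transcripts. For Hnrnpa2b1 the intervals were 32.1% to 34.0% and 39.2% to 40.8%.

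**Figure D2:**
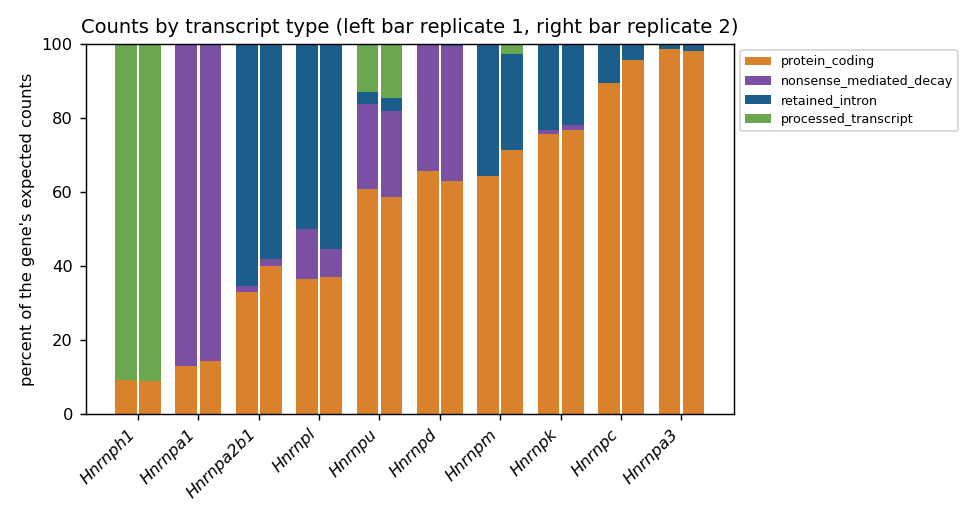
Percent of each gene's estimated counts in transcripts of each annotated type, from 0 to 100, for replicate 1 (left bar) and replicate 2 (right bar), ordered by the protein_coding share. Hnrnph1 is mostly processed_transcript, Hnrnpa1 mostly nonsense_mediated_decay, and Hnrnpa2b1 and Hnrnpl mostly retained_intron or, for Hnrnpl, retained_intron and nonsense_mediated_decay.

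**Figure D3:**
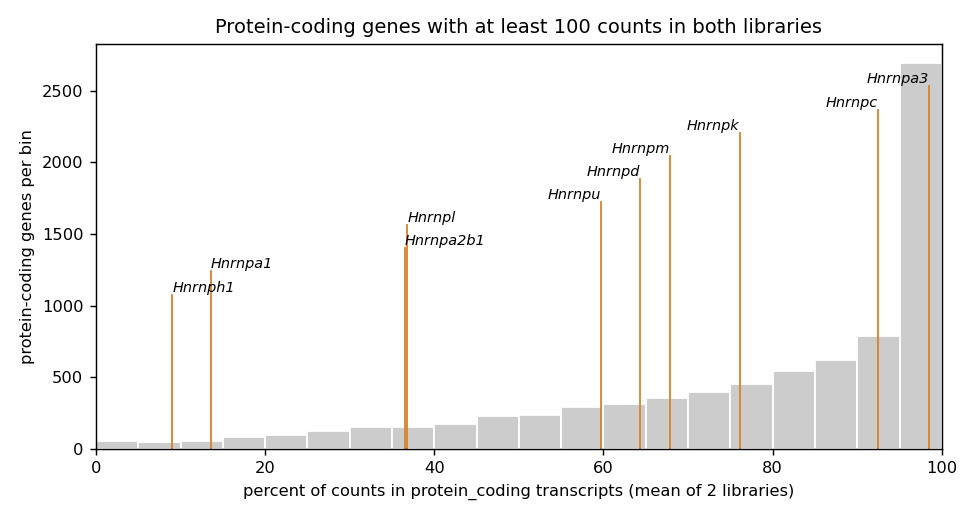
Number of protein-coding genes (7859 with 100 counts or more in each library) per 5-point bin of the mean percent of counts in protein_coding transcripts, with the 10 hnRNP genes marked by orange lines of arbitrary height. Hnrnph1 and Hnrnpa1 lie under 15% and Hnrnpa3 in the last bin.

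The type that held the other counts differed from gene to gene. Retained_intron transcripts held at least 10% of counts in both libraries in 4 of the 8 genes that have one, against 59.6% of protein-coding genes with such a transcript. Nonsense_mediated_decay transcripts did so in 3 of 6 genes (Hnrnpa1, Hnrnpu and Hnrnpd), against 23.8%. Processed_transcript entries did so in 2 of 3 (Hnrnph1 and Hnrnpu), against 15.2%. Of the 138 transcripts annotated for the 10 genes, 71 were not protein_coding, and 51 of these hold bases from introns of the protein_coding transcripts. Of all 138, 81 had at least 10 counts in both libraries and 22 had 0 in both.

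Hnrnpa2b1 lies on the minus strand at chr6:51460932-51469894 (mm10). Its retained_intron transcripts held 65.3% and 58.2% of counts. The most counted of them, Hnrnpa2b1-213, had 2344 and 3819 counts. Of its 3645 bases, 2743 lie in introns of the protein_coding transcripts inside the span between start and stop codons. It keeps 4 annotated introns whole, and those at the B1 exon overlap. The long intron of transcripts that skip the B1 exon is counted beside the introns on either side of that exon. The remaining kept intron lies further downstream and overlaps none of these. Hnrnpa2b1-213 reads unspliced through the exon that makes the B1 protein and the introns on either side of it. The borders of that exon in Hnrnpa2b1-213 are shown to let the kept intron be seen, with 20 intron bases in capitals and 20 exon bases in lower case.
Hnrnpa2b1 intron into B1 exon, chr6:51467407-51467446, minus strand: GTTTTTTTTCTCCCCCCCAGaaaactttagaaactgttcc
Hnrnpa2b1 B1 exon into intron, chr6:51467371-51467410, minus strand: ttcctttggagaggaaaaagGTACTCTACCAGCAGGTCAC

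Another pair, Hnrnpa2b1-211 and Hnrnpa2b1-208, keeps intron sequence outside the coding span, on the 3′ side. Hnrnpa2b1-211 had 2332 and 2972 counts, with 704 of 1554 bases in introns. Hnrnpa2b1-208, only 766 bases long, had 1002 and 1313 counts and led the gene by TPM (133 and 98.2). The largest protein_coding transcript, Hnrnpa2b1-204, had 1096 and 2074 counts. Of the 2 nonsense_mediated_decay transcripts, Hnrnpa2b1-207 had 10.9 counts in replicate 1 and 250 in replicate 2. The other, Hnrnpa2b1-209, went the other way, with 140.8 and 0. In replicate 1 the quantifier's own SD was 162% of the value for Hnrnpa2b1-207 and 66.5% for Hnrnpa2b1-209. Together they held 1.66% and 1.73% of the gene's counts.

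Hnrnph1 (chr11:50376990-50386528, plus strand) has no annotated retained_intron transcript, yet 78.1% ± 4.16 of its counts were in processed_transcript entries that hold intron bases. Hnrnph1-204 had 2359 and 2709 counts and Hnrnph1-205 had 867 and 1936, against 470 and 611 for Hnrnph1-201, the main protein_coding transcript by these counts. In the alignment-free table Hnrnph1-201 had 187 and 411 counts and the protein_coding Hnrnph1-202 had 551 and 359. Both Hnrnph1-204 and Hnrnph1-205 keep the same 2433 intron bases, 2 whole introns around a coding exon. The outer borders of that kept stretch in Hnrnph1-204 are shown, again with intron bases in capitals.
Hnrnph1 exon into first kept intron, chr11:50379945-50379984, plus strand: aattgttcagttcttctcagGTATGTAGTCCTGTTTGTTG
Hnrnph1 second kept intron into exon, chr11:50382517-50382556, plus strand: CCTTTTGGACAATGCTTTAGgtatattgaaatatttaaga

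By TPM the leading Hnrnph1 transcript was Hnrnph1-212 (82.0 and 39.96 TPM), a processed_transcript entry of 816 bases near the 3′ end. All of its bases lie in exons that protein_coding transcripts share.

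**Figure D4:**
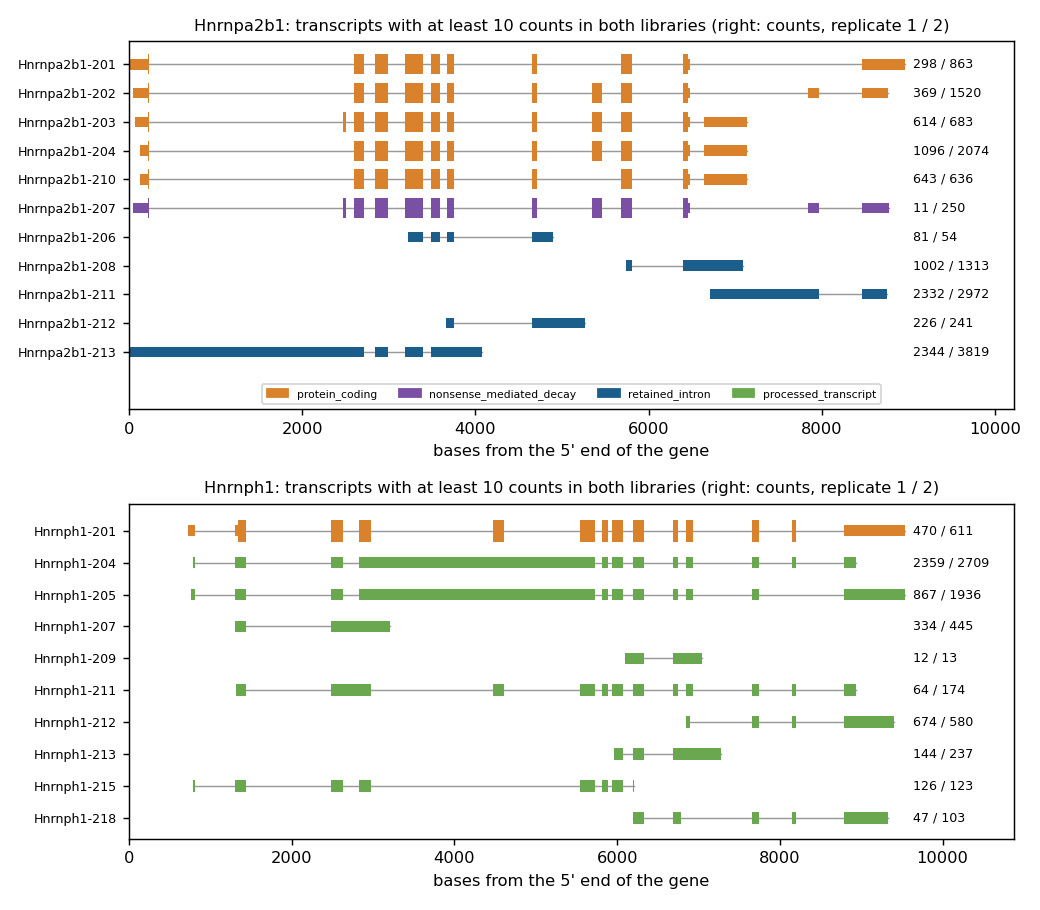
Exons (boxes, tall where coding) of the Hnrnpa2b1 and Hnrnph1 transcripts with at least 10 counts in both libraries, drawn to scale in bases from the 5′ end of each gene, coloured by type, with counts of replicate 1 and 2 at the right. Hnrnpa2b1-213 and Hnrnph1-204 show long boxes where protein_coding transcripts have introns.

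Hnrnpa1 (chr15:103240432-103246692, plus strand) had 87.1% and 85.8% of its counts in nonsense_mediated_decay transcripts and none in transcripts with bases from introns of its protein_coding transcripts. Hnrnpa1-204 had 685 and 1078 counts and Hnrnpa1-203 had 451 and 535, against 168 and 268 for the protein_coding Hnrnpa1-202. Both nonsense_mediated_decay transcripts end 1737 bases past the 3′ end of the protein_coding ones. Hnrnpa1-204 shares 1883 of its 3118 bases with protein_coding exons, and Hnrnpa1-203 shares 1059 of 1283. The quantifier's SD was 29.8% and 19.4% of the count for Hnrnpa1-202, and at most 8.63% for the other 2. By TPM Hnrnpa1-203 led in both libraries with 30.8 and 21.2 TPM.

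Hnrnpl (chr7:28808541-28822266, plus strand) had 49.97% and 55.4% of counts in retained_intron transcripts and 13.5% and 7.53% in the single nonsense_mediated_decay transcript. The retained_intron transcript Hnrnpl-206, which led by counts and by TPM, had 773 and 1121 counts, with 1608 of 2275 bases in introns. The protein_coding transcript Hnrnpl-202 had 539 and 724. The protein of this gene is known to repress its own mRNA through an exon that brings in an early stop codon. The nonsense_mediated_decay transcript Hnrnpl-213, which carries 70 bases from within an intron, had 322 and 222 counts, with a quantifier SD of 15.9% and 20.4%. Whether these 70 bases belong to that exon was not tested. Hnrnpl-206 ends inside this intron and keeps no annotated intron whole, so the kept intron named below is only partly held. The start of the intron stretch of Hnrnpl-206 is shown with intron bases in capitals.
Hnrnpl exon into kept intron, chr7:28815333-28815372, plus strand: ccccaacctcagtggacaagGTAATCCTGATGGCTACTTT

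Hnrnpm (chr17:33646233-33686860, minus strand) had 35.5% and 25.8% of counts in retained_intron transcripts. Hnrnpm-203 had 502 and 473 of these counts, and 2322 of its 2626 bases are intron. The protein_coding transcript Hnrnpm-201 led the gene by counts, with 916 and 1086. By TPM Hnrnpm-213 led in replicate 1 and Hnrnpm-201 in replicate 2. The retained_intron transcript Hnrnpm-208 led by mean TPM in the alignment-free table. Hnrnpk (chr13:58391142-58403343, minus strand) had 23.3% and 22.0% in retained_intron transcripts, led by Hnrnpk-204 with 164 and 279 counts. Both Hnrnpm-203 and Hnrnpk-204 end inside the intron and keep no annotated intron whole, so the kept introns named below are only partly held. The intron starts of these Hnrnpm and Hnrnpk transcripts follow.
Hnrnpm-203 exon into kept intron, chr17:33677254-33677293, minus strand: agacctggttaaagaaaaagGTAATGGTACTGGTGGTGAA
Hnrnpk-204 exon into kept intron, chr13:58399136-58399175, minus strand: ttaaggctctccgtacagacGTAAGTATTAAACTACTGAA

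Hnrnpu (chr1:178321108-178337797, minus strand) has 1 protein_coding transcript, Hnrnpu-201, with 4059 and 4887 counts. Next came the nonsense_mediated_decay transcript Hnrnpu-206 with 1528 and 1928 counts, and it led by TPM (42.5 and 31.6 TPM). The processed_transcript Hnrnpu-205 had 795 and 1104 counts. None of its 2640 bases lie in Hnrnpu-201: it starts 171 bases past the 3′ end of that transcript. Intron-holding transcripts held 4.61% ± 0.358 of Hnrnpu counts, the largest of the retained_intron type being Hnrnpu-202 with 152 and 214.

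Hnrnpd (chr5:99955935-99978938, minus strand) had 34.3% and 36.4% of counts in nonsense_mediated_decay transcripts. Of these Hnrnpd-208 had 228 and 183 counts, beside 232 and 202 for the protein_coding Hnrnpd-203. Hnrnpc (chr14:52073377-52104028, minus strand) was led by counts by the protein_coding Hnrnpc-210 with 1188 and 1337. The Hnrnpc transcript that differed most between the libraries in TPM was Hnrnpc-212, a 611-base retained_intron entry with no base in introns of protein_coding transcripts. It had 39.6 TPM in replicate 1 and 5.76 in replicate 2 (214 and 56.5 counts), with a quantifier SD of 8.04% and 22.3%. By TPM Hnrnpc-212 led the gene in replicate 1 and Hnrnpc-210 in replicate 2. Hnrnpc-212 also led by mean TPM in the alignment-free table. Hnrnpa3 (chr2:75659261-75669407, plus strand) was led by counts by the protein_coding Hnrnpa3-203 with 2421 and 3758, and its single retained_intron transcript Hnrnpa3-205 had 48.3 and 100.4.

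By mean TPM the leading transcript was not protein_coding in 7 of the 10 genes (9 in replicate 1 alone and 6 in replicate 2 alone), against 16.2% of the 7859 genes by mean TPM. By counts this held for 4 (Hnrnpa1, Hnrnpa2b1, Hnrnph1 and Hnrnpl), against 12.9%. The leading transcript by TPM was the same in both libraries for 5 of the 10 genes. The quantifier's SD was a smaller part of the count for retained_intron transcripts than for protein_coding ones. This SD covers only the split of reads among annotated transcripts. Reads from unspliced precursor RNA could not be told apart from those of intron-holding transcripts, so a small SD does not show that a count is right. Among transcripts with 100 counts or more in each library, the quantifier's SD had a median of 1.06% of the count in 10 retained_intron transcripts, 6.00% in 7 processed_transcript entries, 8.12% in 5 nonsense_mediated_decay transcripts and 10.1% in 26 protein_coding transcripts.

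Coding sequence that some protein_coding transcripts of a gene include and others skip was measured as the share of TPM in those that include it. The 10 genes had 37 such segments of at least 9 bases, and 23 of them were included at 5% to 95% in both libraries, against 37.9% of 13567 such segments in the 7859 genes. Segments of 1 gene share transcripts and are not independent. Hnrnpu had none, having a single protein_coding transcript. The segments of 3 genes with textbook isoform pairs are shown with the segment in capitals and 6 neighbouring coding bases on each side in lower case, 5′ to 3′ in the sense of the gene, with coordinates of the capitals in mm10.
Hnrnpa2b1 B1 exon, chr6:51467391-51467426, minus strand: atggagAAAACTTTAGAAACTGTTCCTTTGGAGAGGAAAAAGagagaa
Hnrnpc C2 insert, chr14:52081789-52081827, minus strand: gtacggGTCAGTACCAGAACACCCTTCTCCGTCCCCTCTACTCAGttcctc
Hnrnpd 57-base exon, chr5:99976534-99976590, minus strand: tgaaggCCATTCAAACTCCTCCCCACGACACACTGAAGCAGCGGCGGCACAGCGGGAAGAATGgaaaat
Hnrnpd 147-base exon, chr5:99963731-99963877, minus strand: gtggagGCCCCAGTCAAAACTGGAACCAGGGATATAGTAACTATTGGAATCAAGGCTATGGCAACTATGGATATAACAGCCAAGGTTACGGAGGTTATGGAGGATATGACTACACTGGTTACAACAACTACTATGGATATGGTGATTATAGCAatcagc

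The B1 exon of Hnrnpa2b1 adds 36 coding bases near the start codon and separates the B1 protein from the shorter A2. It was included in 19.0% of protein_coding TPM in replicate 1 and 11.2% in replicate 2 (15.1% ± 5.55), so protein_coding TPM was mostly of the A2 form in both libraries. The alignment-free table gave 18.3% and 9.82%. Near the 3′ end of the reading frame, in the part that encodes the glycine-rich domain, an adjoining pair of segments of 24 and 96 bases was included at 70.2% ± 4.07 and 69.8% ± 4.60.

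The C2 insert of Hnrnpc, 39 bases that distinguish the C2 protein from C1, was included at 25.4% and 24.3% (24.9% ± 0.796). The alignment-free table gave 37.4% and 35.0%, so C1 was the larger form in both tables. Another segment of Hnrnpc, of 21 bases, stood at 30.7% ± 1.17, and at 46.3% and 41.0% in the alignment-free table.

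Hnrnpd makes 4 proteins, named p37, p40, p42 and p45 by size, from the choice of the 57-base and 147-base exons. Of the TPM in protein_coding transcripts that span both exons, p42, with the 147-base exon alone, held 72.3% and 74.2%. The p45 form, with both, held 13.6% and 17.7%, the p40 form, with the 57-base exon alone, 9.86% and 4.52%, and the p37 form, with neither, 4.22% and 3.52%. The order of the 4 forms was the same in both libraries of this table. In the alignment-free table p42 held 71.9% and 56.8%, p45 20.2% and 24.2%, p37 7.95% and 19.0%, and p40 was listed at 0 in both, so the order of the smaller forms p37 and p40 depends on the table. The split leaves out the 493-base protein_coding transcript Hnrnpd-210 (9.54 and 8.61 TPM), which holds the 57-base exon and does not reach the other. With it, the 57-base exon was included at 51.9% and 62.6%. Over protein_coding transcripts the 147-base exon was included at 85.9% and 92.0%. With nonsense_mediated_decay transcripts added, this fell to 43.5% and 48.6%. The shares of the 4 forms rest on few counts: 232 and 202 for p42, 197 and 214 for p45, 38.8 and 15.1 for p40, and 12.3 and 8.71 for p37. By counts alone p45 and p42 were close, since the p45 transcript is 6811 bases long and the p42 transcript 1670.

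In Hnrnpk a 72-base exon was included at 87.3% and 88.2% (87.8% ± 0.644). In Hnrnpa3 a 66-base segment stood at 25.6% ± 3.03 and separate segments of 81 and 102 bases at 80.4% ± 5.08 each. For the 66-base segment the alignment-free table gave 51.7% and 41.9%, so the minority form in 1 table was near parity in the other. In Hnrnpl a 111-base segment was included at 13.3% and 13.9%. The 4 mixed segments of Hnrnpm lay between 18.3% and 40.2%. The widest gap between libraries was in the 124-base segment of Hnrnpk, at 74.4% and 90.3%.

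**Figure D5:**
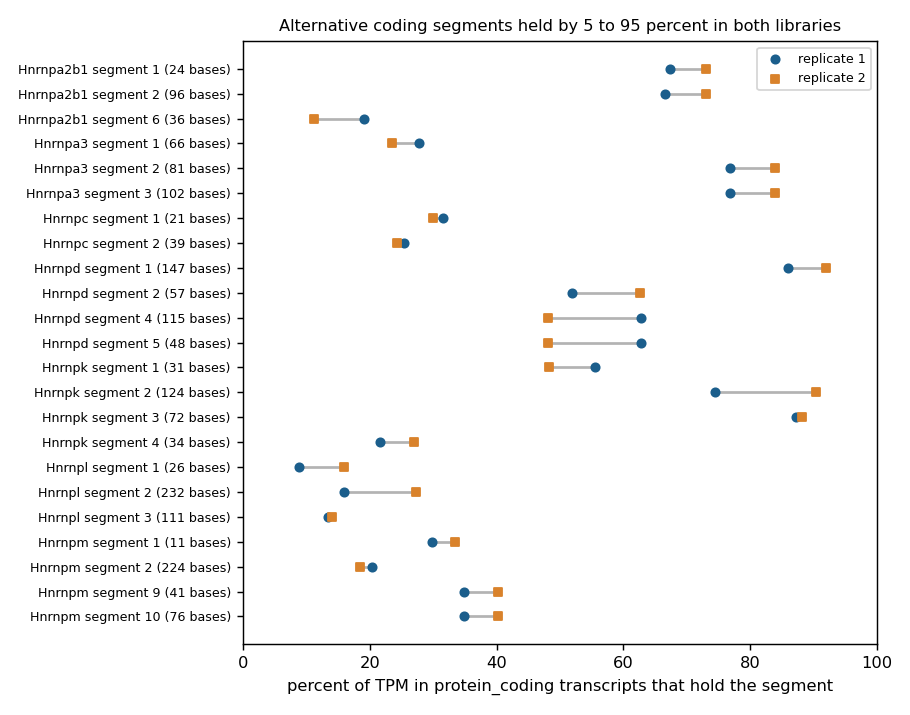
Percent of protein_coding TPM that includes each of the 23 alternative coding segments held at 5% to 95% in both libraries, for replicate 1 (circles) and replicate 2 (squares), with segment lengths in bases. The Hnrnpc and Hnrnpk 72-base points nearly coincide between libraries, while the Hnrnpk 124-base points are 74.4% and 90.3%.

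Several of these genes have close copies, and the quantifier splits shared reads between them. At 90% identity or more over at least 300 bases, 68 other genes matched the 10 genes. Of these, 3 overlap the member they match on the genome, and 65, of which 62 are pseudogenes, are copies elsewhere and match 7 of the 10 genes; setting the 3 apart was a choice made after seeing the data. Hnrnpa3 had 39 and Hnrnpa1 had 17. Counts assigned to the copies came to 22.2% and 13.9% of the Hnrnpa3 count and 11.2% and 6.42% of the Hnrnpa1 count. In the alignment-free table the same copies came to 65.8% and 58.0% for Hnrnpa3 and 44.5% and 22.0% for Hnrnpa1, so the levels of these 2 genes are uncertain. The copies of Hnrnpa1 held 146 and 121 counts, beside 168 and 268 for the protein_coding Hnrnpa1-202. The shares of Hnrnpa1 by transcript type are therefore uncertain too. For Hnrnpk the copies came to 5.91% and 3.80%, for Hnrnpc to 0.348% and 0.0890%, and for each of the others, the 3 overlapping genes apart, to less. Of the 3 overlapping genes, March2 lies on the same strand as Hnrnpm over 1169 bases and had 562 and 576 counts, or 21.9% and 19.1% of the Hnrnpm count, so the split of reads between them is uncertain. Cox20 lies on the opposite strand of Hnrnpu over 1586 bases, with 17.3 and 19.8 counts, and Gm17092 opposite Hnrnpd over 1173 bases, with 6.04 and 15.3. Below the match criteria, Gm44702 lies opposite Hnrnpl over 1194 bases (19 and 32 counts) and Rmi1 opposite Hnrnpk over 1096 bases (483 and 519 counts), and 2 microRNA genes at 0 counts lie within Hnrnpa3 and Hnrnpk.

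Between the libraries, 0 of the 10 genes moved beyond 2-fold, against 1.71% of 14584 genes. The log2 ratio of TPM + 1 in replicate 2 to replicate 1, minus the median of all these genes (-0.42), ran from -0.53 for Hnrnpc to 0.19 for Hnrnpa2b1, with a median of -0.06. In CPM (counts scaled to a total of 1e+06), minus their own median, Hnrnpc stood at -0.14.

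Of 20 other hnRNP genes, all were at 1 TPM or above in both libraries, with a median of 32.4 TPM. Among the highest were Hnrnpll (158 ± 20.8 TPM), a relative of Hnrnpl, and Ptbp1 (85.1 ± 25.8 TPM), a repressor of splicing. Under 50% of counts in protein_coding transcripts was seen in 3 of the 20, among them Hnrnpll at 4.50% ± 0.223 and Ptbp1 at 41.7% ± 7.05. Of 12 SR genes, which encode splicing factors that often oppose hnRNPs, 6 were under 50%, and their median share was 51.0%. The lowest were Tra2a at 7.15% ± 2.24, Srsf3 at 13.0% ± 1.56 and Srsf5 at 21.3% ± 2.51. The highest SR levels were those of Srsf5 (343 ± 39.0 TPM), Srsf11 (224 ± 93.8) and Srsf2 (119 ± 28.2).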

How the data were processed

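Per the deposited readme, the authors made expected counts and TPM per gene and transcript from an alignment to the transcriptome (mm10, GENCODE M21), with each transcript's percent of the gene's TPM and an SD of its count, called the quantifier's SD here. A second deposited transcript table, called alignment-free here, holds estimated counts and TPM made without that alignment. The quantifiers and the strand setting were not given in the sources used here. Columns are named as RSEM and kallisto name theirs. Gene rows not in the annotation (0.350% and 0.0785% of counts) were left out. Alignment-free totals were 25372491 and 26328920.

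Members and lists were chosen with earlier results of these data known. Shares sum expected counts by transcript type, with 95% Wilson intervals. Exons and sequences came from GENCODE M21. Copies were found with BLAST 2.17.0 among annotated transcripts. Genes overlapping a member were kept out of the copies, a choice made after seeing the data. Ratios used TPM + 1 over genes that reached 10 counts in each library. Python 3.11.15, pandas 2.3.3 and numpy 2.4.6 were used, and edgeR 4.0.16 and DESeq2 1.42.0 for alternative scale factors on rounded counts. The sums were tested on simulated data.

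Named are all 10 genes, each one's leading transcript overall and of each type that reached 10 counts in each library, textbook segments and those at 5% to 95%, and, of the other lists, the 3 highest by TPM and the 3 lowest by protein_coding share; some of these are not reported here.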

Additional observations from a re-analysis of the deposited data

How the results depend on the processing

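No paired analysis was possible because both libraries belong to 1 group. The count of genes whose leading transcript is not protein_coding was 7 by TPM and 4 by expected counts. The weight given to length differs by construction between these 2 measures. By TPM that count was 9 in replicate 1 alone, 6 in replicate 2 alone and 8 in the alignment-free table. The other counts (detection, shares under 50%, segments, copies, ratios) stayed within 1.5 times their value under the alternatives run, with 6 in place of 4 genes under 50% by TPM shares. Leaving out either library gave 4 genes under 50%. The alignment-free table gave 4 as well, but moved 7 of 10 protein_coding shares by more than the SD between libraries. It also gave lower TPM for all 10 genes (167 in place of 486 for Hnrnpa2b1), and put all 10 below the median between-library ratio. The direction of that ratio changed with scaling in some genes: Hnrnph1 was at -0.13 by TPM and 0.23 by CPM, a comparison chosen after seeing the data. With 2 libraries the SDs themselves are imprecise.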
